A study of Homo sapiens with 6 samples.

Results

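Homologous recombination copies lost sequence at a broken chromosome from an intact sister strand, so it works mainly while DNA is being replicated or has just been replicated. Broken ends are first trimmed back by nucleases, BRCA1, PALB2 and BRCA2 then prepare the exposed strand for pairing, and mediator and motor proteins carry the search for the matching sequence. The Fanconi anemia pathway clears crosslinks between DNA strands: a core complex attaches ubiquitin to FANCD2 and FANCI with the help of UBE2T, and the lesion is then cut out and handed to recombination, under the watch of the checkpoint kinases ATM, ATR, CHEK1 and CHEK2.

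The expression of 39 genes of these pathways was followed in H2087-LCC cells. The genes were taken by symbol from a fixed list, and each of the 39 was found among the 21293 genes of the deposited table and among the 14395 genes that passed the filter on low values (10 normalized counts or more on average). They were read in 8 groups by role, which were 7 genes of end resection and the MRN complex, 5 of the BRCA1-PALB2-BRCA2 axis, 4 strand exchange mediators (RAD51C, RAD51D, XRCC2 and XRCC3), 4 accessory and annealing factors, 6 checkpoint kinases and adaptors, 8 Fanconi core complex genes, 3 genes of the FANCD2-FANCI complex and its ubiquitin-conjugating enzyme, and the 2 subunits of the nuclease MUS81-EME1.

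H2087-LCC is a latency competent cancer cell population, selected in mice from the human lung adenocarcinoma line NCI-H2087, and is labelled as a dormant metastatic derivative with mutant RAS. The cells were kept in medium with 2% fetal bovine serum with SB505124 (SB), which blocks the type I receptor for TGFβ, for 3 days, with TGFβ for 3 days, or with TGFβ for 7 days, and 2 RNA-seq libraries were made per group. The study describes the 2 libraries as technical replicates, so the standard errors and p-values may leave out differences between cultures. SB was sampled at 3 days alone, so TGFβ and the longer time in culture cannot be told apart in the comparison of 7 days with SB. In the comparison of 7 days with 3 days of TGFβ, longer exposure and longer culture cannot be told apart either.

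The deposited values, whole normalized counts, summed to between 34306283 and 36340734 per library, which was estimated to correspond to 32000000 to 40000000 assigned reads. The means of the 39 genes lay between 301 and 7990 normalized counts. For each gene the counting error was taken in the library where that gene had its fewest estimated reads, and was 1.19 to 6.13%. Of the epithelial markers, KRT8 went from 33960 and 39833 in SB to 42692 and 36786 at 7 days and KRT19 from 4333 and 5857 to 6809 and 5218. KRT18 went from 47266 and 50793 to 34714 and 31757. EPCAM, an epithelial adhesion molecule, went from 10180 and 9106 to 2988 and 3277. CDH1 (E-cadherin) went from 371 and 635 to 10 and 9, and NKX2-1, a lung lineage factor, from 2784 and 2908 to 853 and 857. The summed count of the 5 leukocyte markers was 22 and 24 in SB, 12 and 9 at 3 days and 20 and 9 at 7 days, and that of the 3 endothelial markers was 62 and 69, 67 and 78, and 62 and 56, most of it PECAM1. The 2 erythroid markers found summed to at most 4, with HBB at 0 in each library.

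The first comparison asked which of the 39 genes had changed after 3 days of TGFβ. Relative to SB, 12 genes were lower and 1 was higher (adjusted p under 0.05 with limma, a linear model with variances moderated across genes, fitted to log2(count + 1) in the 6 libraries), where 14% of all genes tested were lower and 14.9% were higher. The median log2 fold change (log2FC) of the 39 genes was -0.23, against -0.02 over all genes tested. Those that fell were EXO1, BLM, BRCA1, XRCC3, RAD51AP1, RAD54L, CHEK2, FANCA, FANCE, FANCD2, UBE2T and EME1, and the gene that rose was ATM. In 25 of the 39 genes both TGFβ libraries lay below both SB libraries (32.9% of all genes), and in 4 genes, NBN, WRN, ATM and ATR, both lay above (30.3% of all genes). The count at 3 days rested on single libraries and on the setting. It fell without SB replicate 1 or either TGFβ 3-day library, to near the share of all genes lower in the same fits. With 1 library left out the median log2FC of the 39 genes was -0.25 to -0.17. CHEK2 then lay between -0.86 and -0.65 and UBE2T between -0.64 and -0.50. With no filter on low values the count was 5 (CHEK2, EME1, FANCD2, RAD54L and UBE2T), beside 1249 of 19977 genes tested. Without the trend of the variance on expression it was 6, with XRCC3 added, beside 1375 of 14395 genes. With equal library totals it was 20, and the balance over all genes tested turned from 2021 lower and 2149 higher to 2552 and 1819.

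At 7 days of TGFβ, 26 genes among the 39 were lower than in SB and 1, again ATM, was higher (limma), against 26.9% of all genes lower and 27.7% higher. The log2FC values ranged from -1.09 for EXO1 to 0.67 for ATM, with a median of -0.56, while the median over all genes tested was -0.00081. The libraries of the 2 groups were apart in 32 genes with the 7-day values below SB (38.6% of all genes) and in 3 genes, WRN, ATM and ATR, with the 7-day values above (38.9% of all genes). These counts moved little, with 24 to 26 genes lower when 1 library was left out and 23 of them lower in each of those 4 fits.

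The direct comparison of 7 days with 3 days of TGFβ found 23 genes lower and ATM higher at 7 days (limma), where 16.2% of all genes were lower and 17% higher. The median log2FC was -0.40, against 0.02 over all genes tested. In 31 genes the 7-day libraries lay below both 3-day libraries (32.9% of all genes), and in 2, ATM and FANCL, they lay above (36.2% of all genes). Here too the count fell when a library was left out, to 11 without TGFβ 3-day replicate 1, 13 without TGFβ 7-day replicate 1 and 14 without TGFβ 7-day replicate 2. The 9 genes lower with any 1 of the 4 libraries left out were EXO1, BRCA1, BRCA2, RAD51AP1, RAD54L, CLSPN, FANCD2, FANCG and FANCI. With no filter on low values 16 genes were lower, beside 1497 of 19977 genes tested. BARD1, RAD51D, XRCC3, CHEK1, FANCA, FANCB and FANCE no longer passed. Without the variance trend 16 were lower too, beside 1410 of 14395 genes, with BRIP1 lost in place of FANCB.

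The 3 comparisons share libraries, so the calls are set side by side here and are not independent. The share of all genes tested with each pattern of calls was not taken, so the patterns only list the genes. Of the 39 genes, 11 were lower in all 3 comparisons: EXO1, BLM, BRCA1, XRCC3, RAD51AP1, RAD54L, FANCA, FANCE, FANCD2, UBE2T and EME1. A further 12 were lower at 7 days than in either other group without passing the threshold at 3 days: RBBP8, BARD1, BRCA2, BRIP1, RAD51C, RAD51D, XRCC2, CLSPN, CHEK1, FANCB, FANCG and FANCI. CHEK2 was lower than SB at both times, and TOPBP1 and MUS81 only in the comparison of 7 days with SB. The 12 genes past the threshold in no comparison were MRE11A, RAD50, NBN, WRN, PALB2, RAD52, RAD54B, ATR, FANCC, FANCF, FANCL and FANCM. In 22 of the 39 genes (56.4%) the 6 libraries were fully ordered, with both SB values above both 3-day values and these above both 7-day values, an order found in 14.5% of all genes tested.

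**Figure D1:**
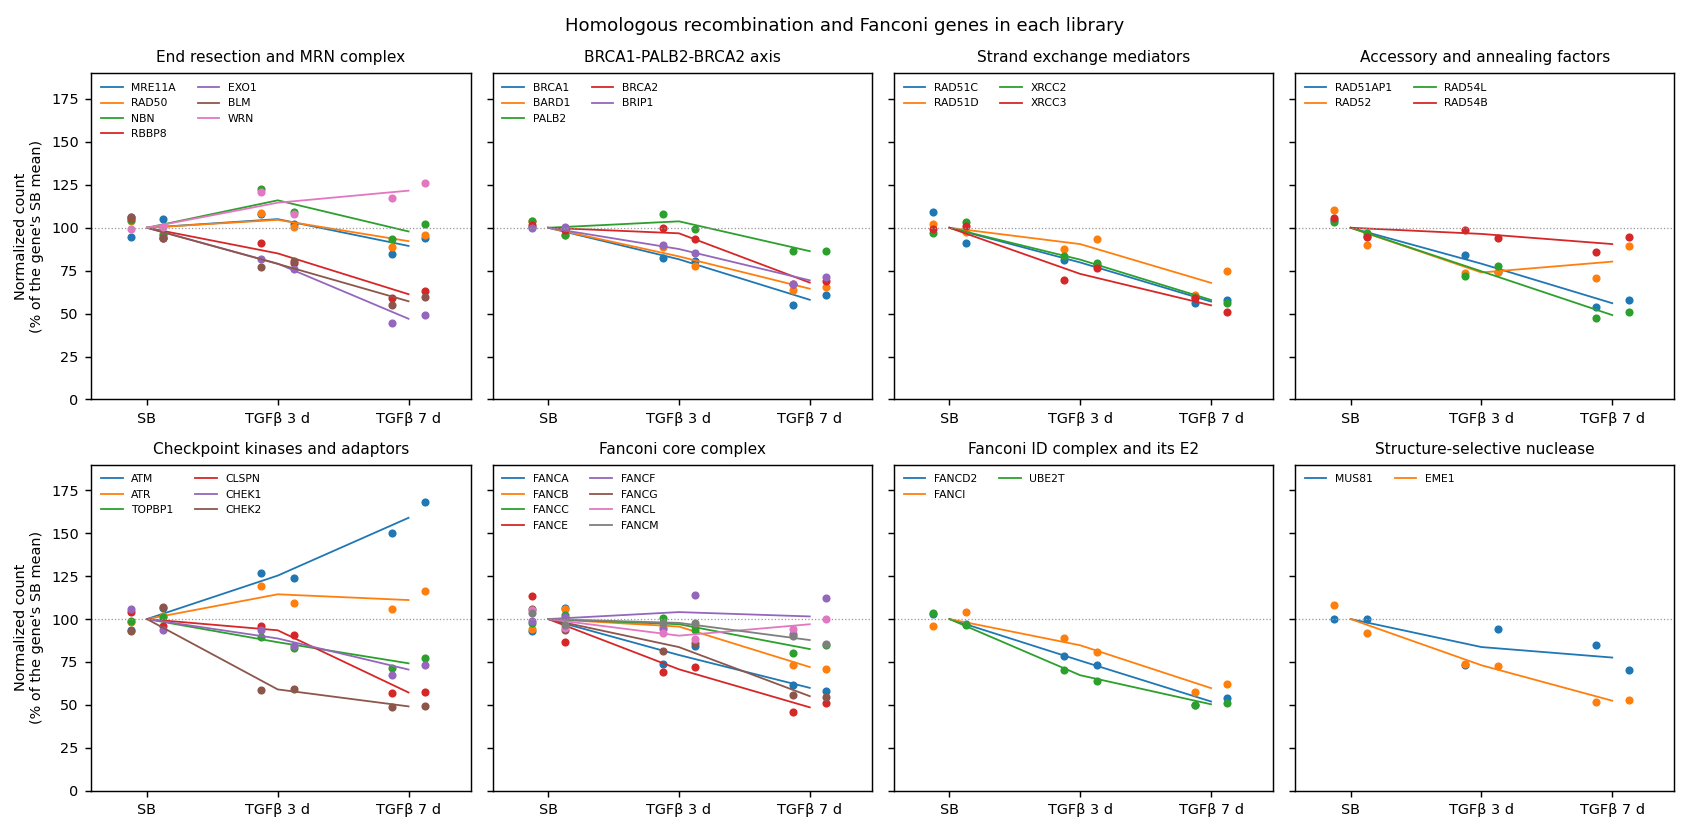
Normalized count of each of the 39 genes in each library, as a percent of the gene's SB mean, in 8 panels by role, with points for libraries and lines through group means (SB, TGFβ 3 days, TGFβ 7 days). Most lines fall from left to right, down to 47.0% of SB for EXO1 at 7 days, while ATM rises to 159% and NBN, FANCF and FANCL end at 97.9%, 102% and 97.0%.

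**Figure D2:**
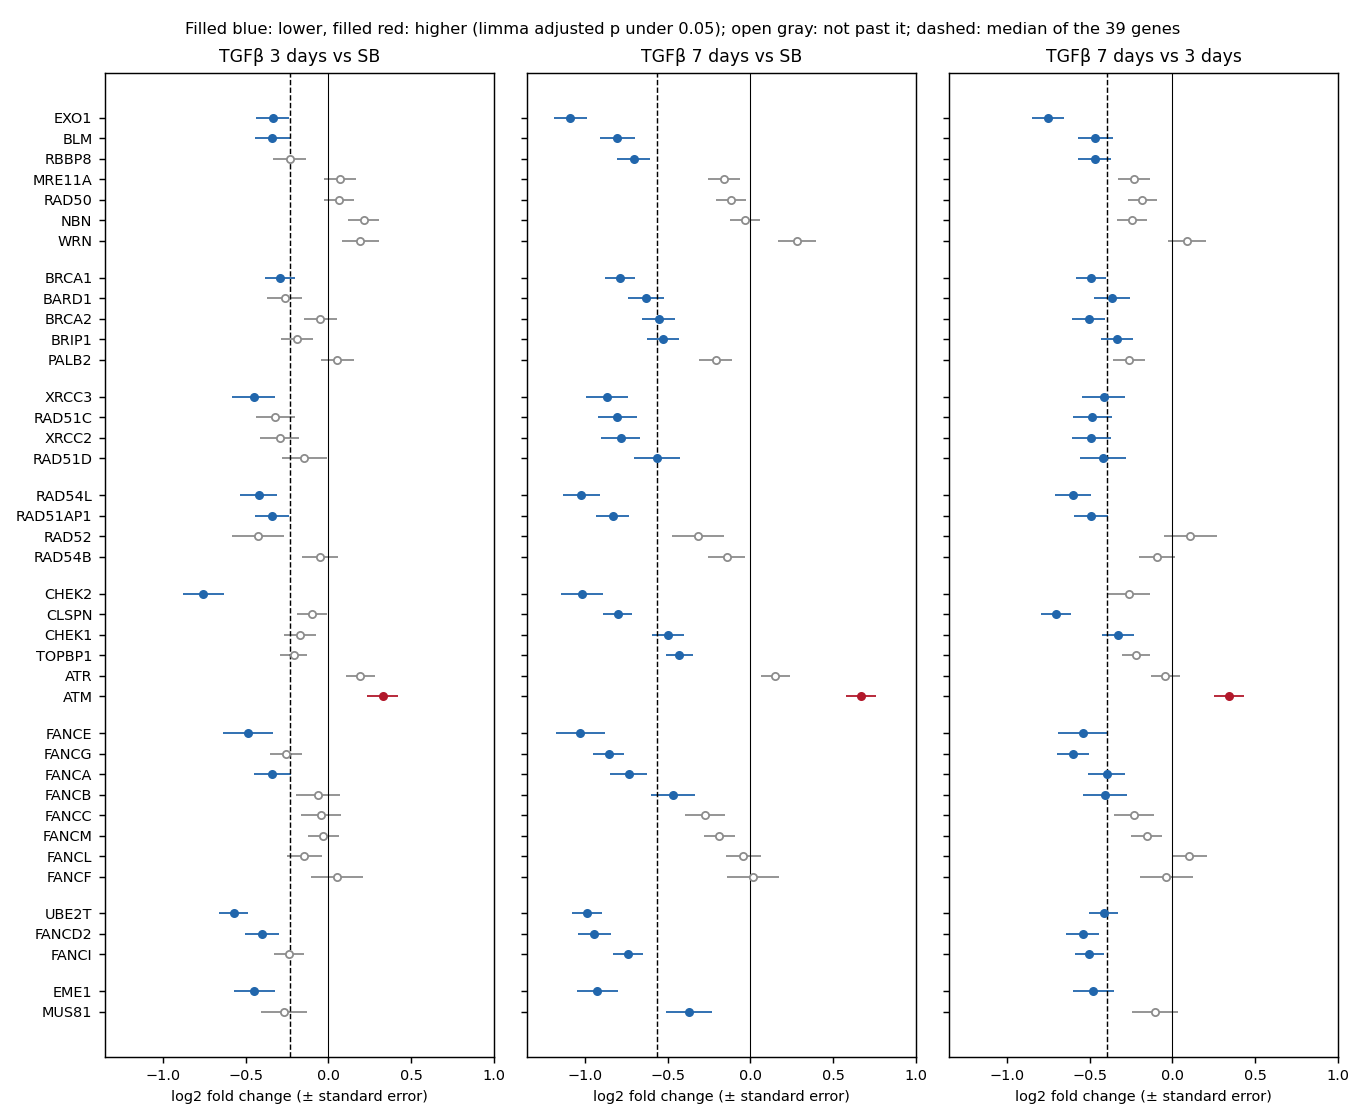
Log2FC with its standard error for each of the 39 genes in each comparison, with filled blue points lower and filled red points higher at an adjusted p under 0.05 (limma), open gray points past neither, and the dashed line at the median of the 39 genes. The dashed line sits at -0.23, -0.56 and -0.40 from left to right, and the filled red point is ATM in each panel.

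The start regions of the genes were then read for motifs of cell cycle regulation. The RefSeq promoter table (GRCh38.p14, 250 bases before to 50 bases after each start) held 35 of the 39 genes, with MRE11A under its current symbol MRE11. NBN, WRN, RAD54B and FANCI were not matched. An E2F motif, searched as TTTCCCGC, TTTCGCGC, TTTGGCGC or TTTGCCGC on both strands, was found in 7 of the 35 genes (20.0%), in 3.99% of the 27305 genes of the table and in 6.48% of those that were also tested here. E2F factors drive genes of DNA replication as cells enter S phase. Of the 25 matched genes that were lower at 7 days than in SB, 6 held a match, as did 1 of the other 10, FANCC. The windows of 30 bases around each match are shown so that the motifs can be read beside the genes' changes; capitals mark the match, which appears as its reverse complement where it lies on the other strand.
EXO1 (GRCh38 chr1:241848197-241848226, plus strand, 4 bases after the start): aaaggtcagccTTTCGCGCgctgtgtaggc
FANCD2 (chr3:10026424-10026453, plus strand, 2 bases before the start): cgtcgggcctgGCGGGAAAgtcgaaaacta
CLSPN (chr1:35769965-35769994, minus strand, 5 bases before the start): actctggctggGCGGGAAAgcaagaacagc
XRCC2 (chr7:152676102-152676131, minus strand, 21 bases after the start): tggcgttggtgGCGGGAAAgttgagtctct
FANCA (chr16:89816801-89816830, minus strand, 172 bases before the start): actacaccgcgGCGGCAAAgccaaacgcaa
TOPBP1 (chr3:133661930-133661959, minus strand, 7 bases before the start): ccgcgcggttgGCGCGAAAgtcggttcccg
FANCC (chr9:95317737-95317766, minus strand, 46 bases before the start): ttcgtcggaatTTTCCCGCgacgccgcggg
FANCC (chr9:95317863-95317892, minus strand, 172 bases before the start): ccggggcttccGCGCGAAAccgggaacact
In EXO1, FANCD2, CLSPN and TOPBP1 the match began within 7 bases of the annotated start, whereas in FANCA and in one of the FANCC windows it began 172 bases before it. FANCC, with 2 matches, had a log2FC of -0.28 between 7 days and SB and did not pass the threshold. The median log2FC was -0.79 for the 7 genes with a match and -0.56 for the 28 without. A second motif, the CHR element of genes used late in the cell cycle (TTTGAA or TTCGAA, both strands), was found in 4 of the 35 genes, ATM, BRIP1, FANCC and UBE2T (11.4%, against 19.5% of all genes in the table and 15.6% of those also tested here), 2 of them among the 25 that fell. CCAAT was found in 17 (48.6%, against 39.7% of all genes in the table and 42.8% of those also tested here), among them 12 of the 25 genes that fell and 5 of the other 10. A match in these letters is a description of the sequence and was not tested as a binding site.

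Of the 7 genes of end resection and the MRN complex, 3 were past the threshold at 7 days. EXO1, BLM and RBBP8 (CtIP) were lower at 7 days than in SB, with log2FC of -1.09, -0.80 and -0.70, whereas MRE11A, RAD50, NBN and WRN did not pass the threshold in any comparison. EXO1 (chr1:242011269-242058450 of GRCh37) encodes the exonuclease that extends resection over long distances. Its normalized counts were 3947 and 3488 in SB, 3046 and 2835 after 3 days of TGFβ and 1660 and 1834 after 7 days. The 3 groups did not overlap, and the 7-day mean stood at 47.0% of the SB mean. The log2FC at 3 days was -0.34 (standard error, SE, 0.10, adjusted p = 0.0237) and at 7 days -1.09 (SE 0.10, adjusted p = 3.02e-06), and between the 2 times it was -0.75 (adjusted p = 0.000264). The call at 3 days was lost without SB replicate 1 or either 3-day library, with log2FC values between -0.43 and -0.25.

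NBN (chr8:90936743-91015456 of GRCh37), the subunit that recruits ATM to the break, had the smallest log2FC of this group between 7 days and SB. It counted 7647 and 7020 in SB, 8999 and 8012 at 3 days and 6848 and 7504 at 7 days. The 3-day libraries lay above both other groups, and SB and 7 days overlapped, with a log2FC of -0.03 (SE 0.09, adjusted p = 0.788). MRE11A, the nuclease of the complex, counted 2453 and 2719 in SB, 2791 and 2641 at 3 days and 2192 and 2433 at 7 days. RAD50, its ATPase, counted 4089 and 3785 in SB, 4278 and 3958 at 3 days and 3493 and 3766 at 7 days. In both genes the 7-day values were the lowest of the 6, without passing the threshold. Within each library the ratio of EXO1 to MRE11A was 1.61 and 1.28 in SB, 1.09 and 1.07 at 3 days and 0.757 and 0.754 at 7 days. The helicase BLM, which unwinds ends for resection and later dissolves joint molecules, had 1923 and 1700 counts in SB and 995 and 1077 at 7 days. WRN, a related helicase, pointed the other way, from 658 and 665 in SB to 775 and 834 at 7 days, with a log2FC of 0.28 that did not pass the threshold (adjusted p = 0.0534).

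In the BRCA1-PALB2-BRCA2 axis, 4 of the 5 genes were lower at 7 days than in SB and the bridge between the 2 BRCA proteins, PALB2, was not past the threshold. BRCA1 (chr17:41196312-41322262 of GRCh37) counted 3013 and 2976 in SB, 2472 and 2417 at 3 days and 1649 and 1828 at 7 days. No 2 groups overlapped, and the pairs of libraries lay close together in SB and at 3 days. Its log2FC was -0.29 at 3 days (SE 0.09, adjusted p = 0.0311) and -0.79 at 7 days (SE 0.09, adjusted p = 2.19e-05), with -0.49 between the times (adjusted p = 0.00208). The 3-day call was lost without any 1 of the 4 libraries compared, although the fold change stayed between -0.31 and -0.28. That call was also lost with no filter on low values, without the variance trend, with the 4 libraries compared alone and with a replicate block. BARD1, the partner that forms the BRCA1 ubiquitin ligase, had a log2FC of -0.63 at 7 days, and the ratio of BARD1 to BRCA1 within a library lay between 0.457 and 0.548 in all 6 libraries.

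PALB2 (chr16:23614481-23652642 of GRCh37) counted 1489 and 1372 in SB, 1547 and 1421 at 3 days and 1237 and 1234 at 7 days. Both 7-day values were the lowest of the 6, but the log2FC of -0.21 from SB did not pass the threshold (SE 0.10, adjusted p = 0.0935). With equal library totals it did, with an adjusted p of 0.0349. BRCA2, which prepares resected strands for pairing, had 1208 and 1171 counts in SB, 1189 and 1113 at 3 days and 798 and 821 at 7 days. SB and 3 days overlapped, and the fall of BRCA2 lay between 3 and 7 days, at 0.51 on the log2 scale (adjusted p = 0.00314). BRIP1, a helicase that binds BRCA1, fell by 0.53 on the log2 scale between SB and 7 days (adjusted p = 0.000749).

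Each of the 4 strand exchange mediators was lower at 7 days than in SB and lower than at 3 days. XRCC3 (chr14:104163946-104181841 of GRCh37) had the largest log2FC of the 4 between 7 days and SB, with 682 and 695 counts in SB, 480 and 527 at 3 days and 406 and 349 at 7 days. The groups did not overlap, and the log2FC was -0.45 at 3 days (SE 0.13, adjusted p = 0.0200) and -0.87 at 7 days (SE 0.13, adjusted p = 0.000138). Its call at 3 days was lost without SB replicate 2 or TGFβ 3-day replicate 1, with log2FC values between -0.52 and -0.38. RAD51D (chr17:33419240-33448541 of GRCh37) had the smallest in that comparison, with counts going from 533 and 508 in SB and 455 and 487 at 3 days to 317 and 390 at 7 days. The 7-day libraries were both the lowest but differed from each other, and the log2FC from SB was -0.56 (SE 0.14, adjusted p = 0.00440), which did not pass the threshold without TGFβ 7-day replicate 1 (-0.42, adjusted p = 0.0685). RAD51C and XRCC2 had log2FC values of -0.80 and -0.79 at 7 days. The calls between 3 and 7 days rested on single libraries, and none of the 4 genes passed without TGFβ 3-day replicate 1 (-0.48 to -0.45, adjusted p = 0.0565 to 0.0868). RAD51D and XRCC3 also missed it without TGFβ 3-day replicate 2 (adjusted p = 0.163 and 0.159), RAD51C and RAD51D without TGFβ 7-day replicate 1 (0.0642 and 0.298), and RAD51C, XRCC2 and XRCC3 without TGFβ 7-day replicate 2 (0.0506, 0.0829 and 0.225).

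Of the accessory and annealing factors, the motor protein RAD54L and RAD51AP1, which promotes strand pairing, were lower in all 3 comparisons, and the related motor RAD54B and the annealing protein RAD52 in none. RAD54L (chr1:46712133-46744152 of GRCh37) had 1116 and 1047 counts in SB, 776 and 838 at 3 days and 512 and 551 at 7 days. Each group lay apart from the others, with a log2FC of -0.42 at 3 days (SE 0.11, adjusted p = 0.0141) and -1.02 at 7 days (SE 0.11, adjusted p = 1.34e-05). Without SB replicate 1 or TGFβ 3-day replicate 1 the 3-day call was lost, with log2FC values between -0.48 and -0.37. RAD54B (chr8:95384188-95487343 of GRCh37) counted 1045 and 934 in SB, 975 and 933 at 3 days and 852 and 939 at 7 days. All 3 groups overlapped, and the log2FC at 7 days was -0.14 (SE 0.11, adjusted p = 0.293). The ratio of RAD54L to RAD54B within a library was 1.07 and 1.12 in SB, 0.796 and 0.898 at 3 days and 0.601 and 0.587 at 7 days. RAD52 had 461 and 376 counts in SB, 309 and 310 at 3 days and 297 and 375 at 7 days, and its fold changes had, with those of FANCF, the largest standard error of the 39 genes, 0.16.

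The 6 checkpoint genes held both the gene that rose and one of the larger falls. ATM (chr11:108093771-108239829 of GRCh37), the kinase activated by broken ends, counted 4685 and 5324 in SB, 6336 and 6207 at 3 days and 7506 and 8405 at 7 days. The groups did not overlap and were ordered upwards, at 125% of the SB mean at 3 days and 159% at 7 days. The log2FC was 0.33 at 3 days (SE 0.09, adjusted p = 0.0196), 0.67 at 7 days (SE 0.09, adjusted p = 8.52e-05) and 0.34 between the times (adjusted p = 0.0154). The call at 7 days held with any 1 library left out, with fold changes from 0.58 to 0.76. The 3-day call was lost without SB replicate 1 or either 3-day library (0.24 to 0.42), and the call between the times without either 3-day library or TGFβ 7-day replicate 2 (0.26 to 0.42). Both were also lost with no filter on low values and without the variance trend. ATR (chr3:142167849-142297575 of GRCh37), the kinase activated by stalled replication forks, counted 4975 and 5140 in SB, 6032 and 5542 at 3 days and 5351 and 5884 at 7 days. All 4 TGFβ libraries lay above SB, but the log2FC values of 0.19 and 0.15 did not pass the threshold (adjusted p = 0.119 and 0.164).

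CHEK2 (chr22:29083731-29138410 of GRCh37), the kinase that ATM activates, counted 677 and 780 in SB, 428 and 432 at 3 days and 355 and 361 at 7 days. It stood at 59.0% of the SB mean at 3 days and at 49.1% at 7 days, with no overlap between groups. The log2FC at 3 days, -0.76 (SE 0.13, adjusted p = 0.000770), was the largest fall of the 39 genes at that time, and at 7 days it was -1.02 (SE 0.13, adjusted p = 3.46e-05). The further fall from 3 to 7 days, -0.26, did not pass the threshold (adjusted p = 0.126). Kinase and target thus moved in opposite directions, and the ratio of CHEK2 to ATM counts within a library was 0.145 and 0.147 in SB, 0.0676 and 0.0696 at 3 days and 0.0473 and 0.0430 at 7 days. CHEK2 has 7 named pseudogenes in the annotation, and HSCB, which overlaps it on the opposite strand, was also lower at 3 days (-0.46) and at 7 days (-0.76). The library kit does not mark the strand, and the part of HSCB in the CHEK2 counts was not tested.

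On the ATR side, CHEK1, the effector kinase, and CLSPN (Claspin), the adaptor that brings CHEK1 to ATR, were lower at 7 days, by 0.50 and 0.80 on the log2 scale. CLSPN, whose promoter window is shown above, had 3092 and 2857 counts in SB, 2860 and 2700 at 3 days and 1686 and 1719 at 7 days. Its SB and 3-day libraries overlapped, and the change of -0.71 from 3 to 7 days (SE 0.09, adjusted p = 0.000220) was, after EXO1, the largest of the 39 genes in that comparison. The ratio of CLSPN to ATR went from 0.622 and 0.556 in SB to 0.315 and 0.292 at 7 days, and that of CHEK1 to ATR from 0.951 and 0.815 to 0.564 and 0.557. TOPBP1, which activates ATR, fell from 9066 and 9321 counts in SB to 6560 and 7088 at 7 days, by 0.43 on the log2 scale (adjusted p = 0.000902).

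The Fanconi core complex, the 8 genes that act as the ubiquitin ligase and its scaffold, was in part past the threshold at 7 days. FANCA, FANCB, FANCE and FANCG were lower than in SB, and FANCC, FANCF, FANCL and FANCM did not pass the threshold. FANCB lost its call without TGFβ 7-day replicate 2 (-0.44, adjusted p = 0.0776), and FANCC and FANCM passed with equal library totals (adjusted p = 0.0362 and 0.0408). FANCE (chr6:35420115-35434881 of GRCh37), which links the core complex to FANCD2, counted 700 and 537 in SB, 429 and 446 at 3 days and 284 and 317 at 7 days. The 2 SB libraries differed widely but lay above all TGFβ libraries, with log2FC values of -0.49 at 3 days (SE 0.15, adjusted p = 0.0291) and -1.03 at 7 days (SE 0.15, adjusted p = 0.000122). The 3-day call of FANCE was lost without SB replicate 1 or either 3-day library, with log2FC values between -0.68 and -0.30 over the fits with 1 library left out. The 3-day call of FANCA (-0.34) was lost without SB replicate 2 or TGFβ 3-day replicate 1 (-0.43 to -0.24 over those fits). It was also lost with no filter, without the variance trend, with the 4 libraries compared alone and with a replicate block. FANCF (chr11:22644079-22647369 of GRCh37), an adaptor within the complex, had the smallest log2FC of the group between 7 days and SB, with 292 and 299 counts in SB, 278 and 337 at 3 days and 269 and 331 at 7 days. Its groups overlapped throughout, and the log2FC at 7 days was 0.01 (SE 0.16, adjusted p = 0.946). FANCL, the catalytic subunit, counted between 892 and 1063 over the 6 libraries and FANCM, the anchor on DNA, between 1458 and 1763. The 7-day values of FANCM, 1536 and 1458, were the lowest of the 6.

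The targets of the core complex and the enzyme that supplies the ubiquitin were all lower at 7 days. UBE2T (chr1:202300672-202311112 of GRCh37), that conjugating enzyme, counted 5197 and 4853 in SB, 3539 and 3223 at 3 days and 2499 and 2563 at 7 days. The 3 groups were well apart, with a log2FC of -0.57 at 3 days (SE 0.09, adjusted p = 0.000460) and -0.99 at 7 days (SE 0.09, adjusted p = 2.69e-06). Between 3 and 7 days UBE2T had a log2FC of -0.42 (adjusted p = 0.00441), which missed the threshold when TGFβ 3-day replicate 1 was left out (adjusted p = 0.0527). FANCD2 had 1685 and 1596 counts in SB, 1283 and 1203 at 3 days and 822 and 884 at 7 days, a log2FC of -0.94 at 7 days (adjusted p = 1.20e-05). FANCI (chr15:89787176-89860492 of GRCh37), its partner, counted 5787 and 6271 in SB, 5352 and 4864 at 3 days and 3471 and 3737 at 7 days. SB, 3 days and 7 days did not overlap, but the 3-day change of -0.24 did not pass the threshold (SE 0.09, adjusted p = 0.0654), while that at 7 days was -0.74 (adjusted p = 3.05e-05). The ratio of FANCD2 to FANCL, substrate to ligase, was 1.59 and 1.67 in SB, 1.38 and 1.35 at 3 days and 0.867 and 0.878 at 7 days, and that of FANCI to FANCD2 lay between 3.43 and 4.23 throughout.

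Of the nuclease that cuts branched DNA, EME1, the regulatory subunit, moved more in value than MUS81, the catalytic one; the difference between them was not tested. EME1 (chr17:48450581-48458844 of GRCh37) counted 785 and 668 in SB, 536 and 526 at 3 days and 377 and 385 at 7 days, with no overlap between groups. Its log2FC was -0.45 at 3 days (SE 0.12, adjusted p = 0.0190) and -0.92 at 7 days (SE 0.12, adjusted p = 7.23e-05). Leaving out SB replicate 1 or either 3-day library ended the 3-day call (-0.56 to -0.33 over the fits with 1 library left out), and the call between 3 and 7 days (-0.48, adjusted p = 0.0129) was lost without any 1 of the 4 libraries compared. MUS81 (chr11:65624597-65635124 of GRCh37) counted 1087 and 1090 in SB, 796 and 1026 at 3 days and 925 and 764 at 7 days. Its TGFβ libraries at 3 and 7 days overlapped, and the change from SB at 7 days, -0.37 (SE 0.14, adjusted p = 0.0383), was lost without SB replicate 1, SB replicate 2 or TGFβ 7-day replicate 2 (-0.51 to -0.23), and with no filter on low values or without the variance trend. The ratio of EME1 to MUS81 was 0.722 and 0.613 in SB and 0.408 and 0.504 at 7 days.

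**Figure D3:**
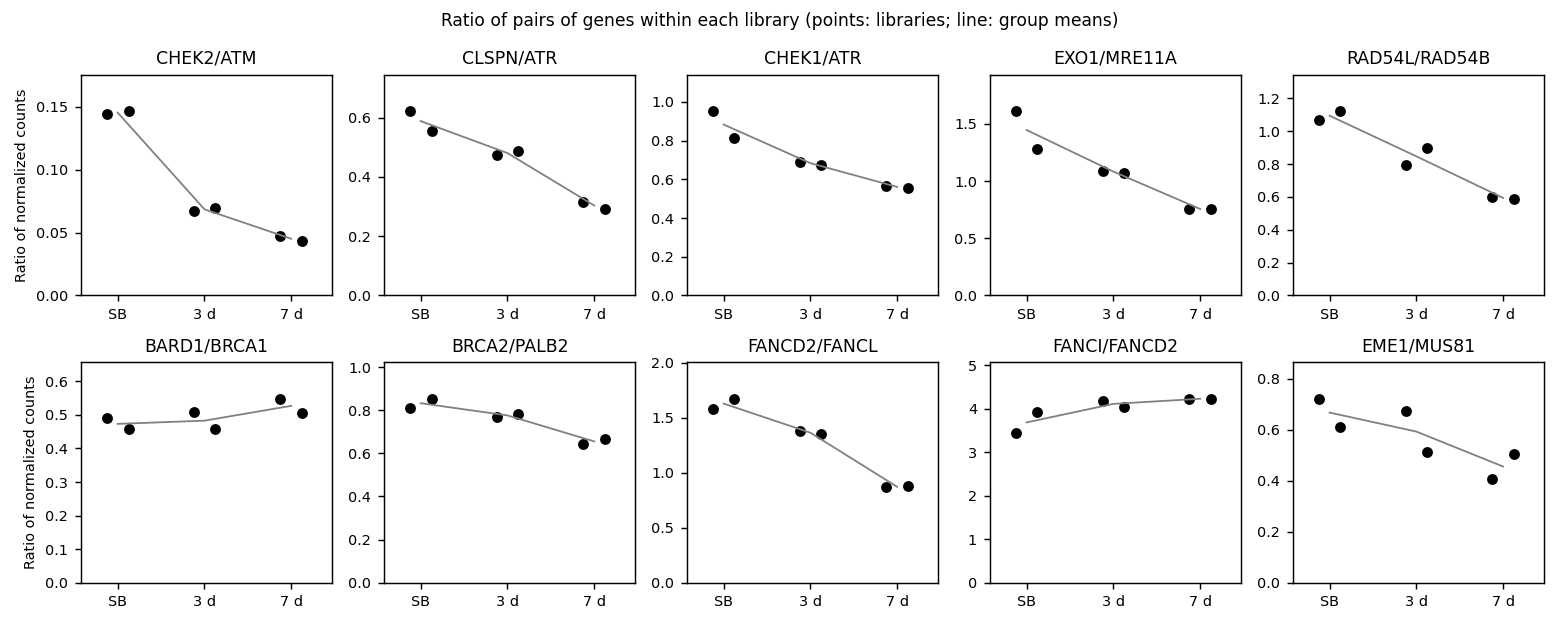
Ratio of the normalized counts of 10 pairs of the genes within each library, with points for the 2 libraries of SB, TGFβ 3 days and TGFβ 7 days and a line through the group means, on axes from 0. CHEK2 to ATM drops from a mean of 0.146 in SB to 0.0451 at 7 days and FANCD2 to FANCL from 1.63 to 0.872, while BARD1 to BRCA1 stays between 0.457 and 0.548. The pairs were chosen after the values were seen and the ratios were not tested.

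Levels were compared between genes per kilobase of the canonical transcript. UBE2T stood highest in every group, at 5723 normalized counts per kilobase in SB, 3851 at 3 days and 2883 at 7 days. TOPBP1 (1596) and NBN (1587) followed in SB and did not differ beyond the spread of their SB libraries, and FANCI (1274) and RBBP8 (1246) came next. ATM went from 387 per kilobase in SB, the 17th of the 39, to 616 at 7 days, the 9th. At the low end lay BRCA2 (99.5 in SB), FANCF (89.8), WRN (87.3) and RAD51D (52.2), the last over a canonical transcript of 9966 bases. Reads were counted over all exons of a gene, so a level per kilobase depends on the transcript chosen.

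**Figure D4:**
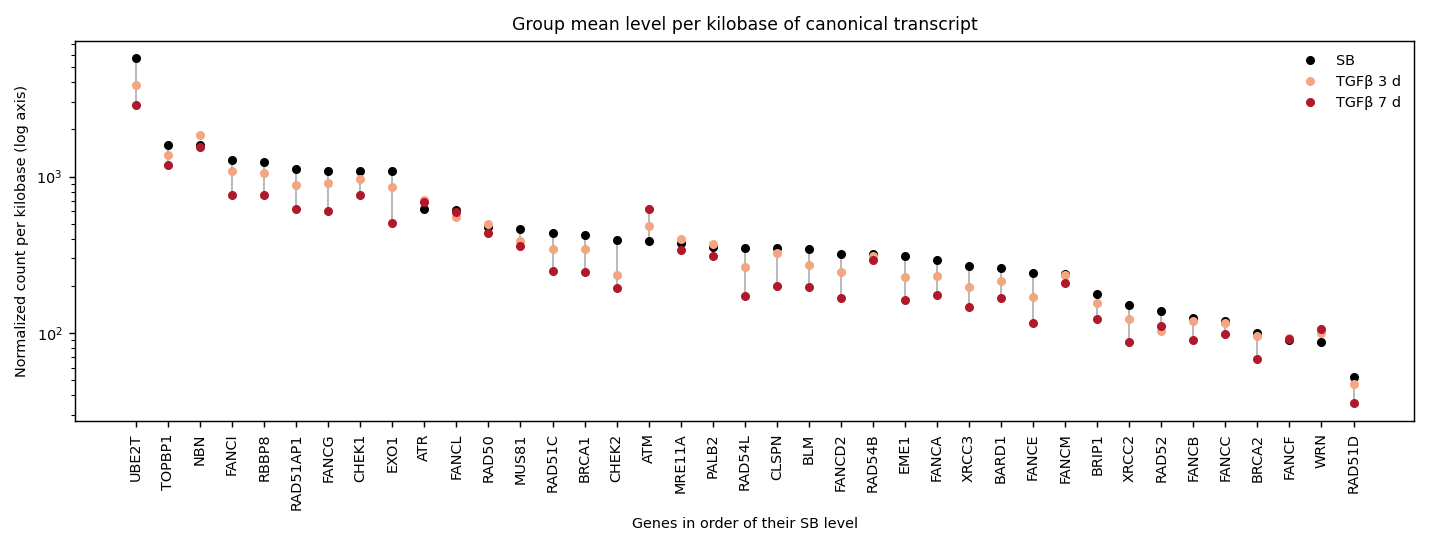
Group mean of each gene in normalized counts per kilobase of canonical transcript, on a log axis, with the 39 genes in order of their SB level and 1 point each for SB, TGFβ 3 days and TGFβ 7 days. UBE2T leads at 5723 in SB and RAD51D is last at 52.2, and ATM is the gene whose points climb most, from 387 to 616.

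Overlap with other tested genes was searched on the opposite strand alone, where 12 of the 39 have one. Overlap on the same strand was not searched. For BRCA1, XRCC3 and RAD54L the neighbor did not share the direction: NBR2 rose from 216 and 212 counts in SB to 334 and 310 at 7 days (log2FC 0.59, adjusted p = 0.00456), KLC1 rose by 0.47 (adjusted p = 0.000618), and LRRC41 had a value of 0.26 (adjusted p = 0.0650). C11orf65, which overlaps ATM, counted 17 to 31 in all 6 libraries, against 4685 or more for ATM. LRRC59, which overlaps EME1, was lower at 7 days (-0.46, adjusted p = 0.00128), with 7357 to 11073 counts, and its part in the EME1 counts was not tested. CFL1, which overlaps MUS81, counted 31430 to 41533, with a log2FC of -0.22 at 7 days against SB (limma, adjusted p = 0.0797). EFEMP2, also over MUS81, rose from 36 and 79 counts in SB to 186 and 167 at 7 days (1.70, adjusted p = 0.000594). VRK2, which overlaps FANCL, was lower at 7 days (-0.46, adjusted p = 0.00187). The part of these genes in the MUS81 and FANCL counts was not tested. MRE11A, RBBP8, BRCA1, RAD51AP1, RAD52 and FANCD2 each have 1 named pseudogene. The study counted uniquely mapped reads, so reads that match gene and pseudogene equally would be left out. The effect on the counts was not tested.

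The rest of the pathway was read from a list of 53 further recombination, Fanconi and checkpoint genes, 52 of which were tested. At 3 days 11 were lower and 2 higher than SB, at 7 days 26 and 5, and between 3 and 7 days 14 and 2, with median log2FC values of -0.13, -0.30 and -0.19. The shares lower were 21.2%, 50% and 26.9%, against 14%, 26.9% and 16.2% of all genes tested. The largest fall at 7 days was that of TIPIN, a fork protection factor that works with TIMELESS, from a mean of 1898 to 779.5 counts (-1.28, adjusted p = 3.84e-06), and the largest rise that of ZSWIM7, a recombination factor, from 192.5 to 344 (0.83, adjusted p = 0.00115). Between 3 and 7 days ERCC4 (XPF), the nuclease that unhooks crosslinks, rose most, by 0.57 on the log2 scale (adjusted p = 0.00398).

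Other repair pathways were read the same way, beside 14% of all genes lower and 14.9% higher at 3 days and 26.9% lower and 27.7% higher at 7 days. Of 15 end joining genes, 3 (20.0%) were lower at 3 days and 8 (53.3%) at 7 days, when 2 were higher, with a median of -0.28 at 7 days. LIG4, the ligase that seals joined ends, rose by 0.56 on the log2 scale at 7 days (adjusted p = 0.00123), and the largest fall was that of C9orf142 (PAXX), a factor that binds the end joining complex (-1.03, adjusted p = 0.000617). Among 18 base excision repair genes, 5 (27.8%) were lower at 3 days and 12 (66.7%) at 7 days, led by POLB, the gap-filling polymerase, which went from a mean of 1712.5 counts in SB to 557.5 and then 460.5 (-1.89 at 7 days, adjusted p = 6.29e-08). For 7 mismatch repair genes the counts lower were 2 (28.6%) and 3 (42.9%), with a median of -0.21 at 7 days. Of these lists, nucleotide excision repair had the median nearest to 0 at 7 days, -0.08, with 7 of 22 lower (31.8%) and 3 higher (13.6%) at 7 days, the first near the share of all genes. ERCC6, the factor of transcription-coupled repair, rose by 1.21 (adjusted p = 1.80e-05), and ERCC2 (XPD), a helicase of the same pathway, had the largest fall (-0.82, adjusted p = 0.000895).

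**Figure D5:**
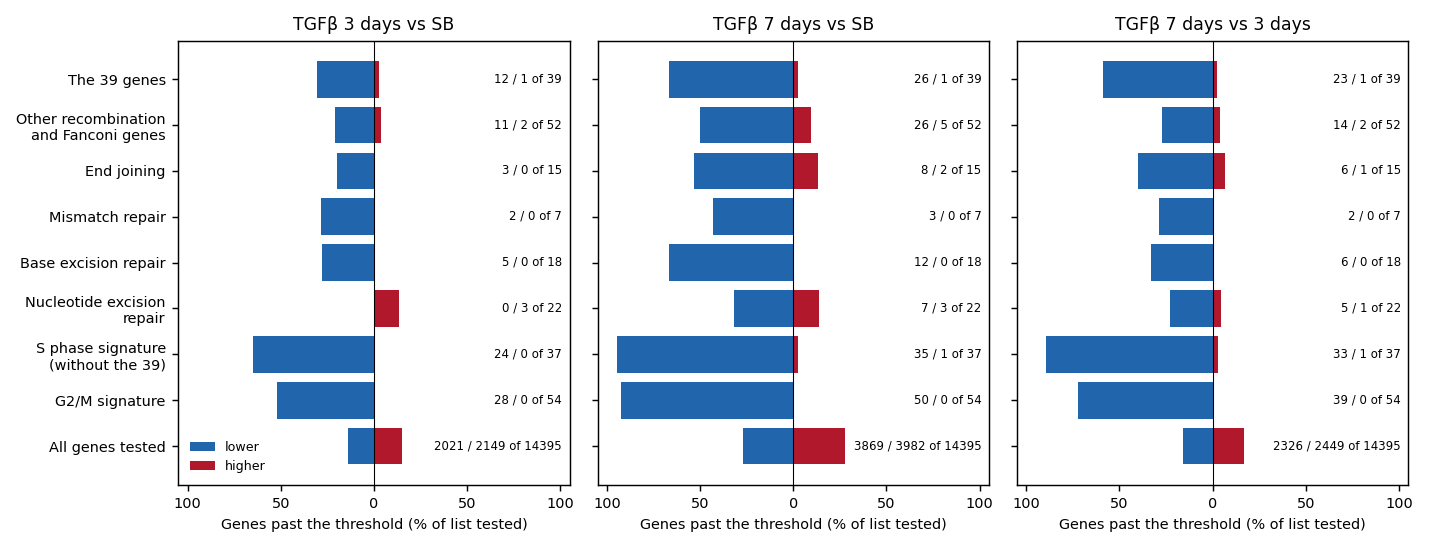
Percent of the tested genes of each list past the threshold (adjusted p under 0.05, limma), with lower to the left in blue and higher to the right in red, in the 3 comparisons. At 7 days against SB, 26 of the 39 genes, 26 of 52 further recombination genes, 35 of 37 S phase genes and 50 of 54 G2/M genes are lower, beside 26.9% of all genes tested. Of the further recombination genes, 4 are also S phase genes.

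Proliferation genes moved with the 39 genes. Of the study's S phase signature, 5 genes are among the 39 (RAD51AP1, EXO1, BLM, CLSPN and BRIP1). Of the 37 others tested, 24 (64.9%) were lower at 3 days, 35 (94.6%) at 7 days and 33 (89.2%) between the times. Of all genes tested, 14%, 26.9% and 16.2% were lower. The medians of the 37 were -0.33, -0.81 and -0.51. This S phase list shares 4 genes, TIPIN among them, with the further recombination list and 2 with base excision repair. It shares 1 with mismatch repair and 1 with the E2F, RB and DREAM genes, so these lists are not separate. Of the 54 G2/M signature genes, 28 (51.9%), 50 (92.6%) and 39 (72.2%) were lower, with medians of -0.27, -0.74 and -0.41. In bulk RNA, fewer cells in S and G2 phases and less of these RNAs per cell cannot be told apart, and the part of cell cycle phase in the changes of the 39 genes was not tested. The regulators moved both ways: of 20 E2F, RB and DREAM genes, 10 were lower (50%) and 3 higher (15.0%) at 7 days, against 26.9% and 27.7% of all genes. E2F2, an activator, had the largest fall, from a mean of 497.5 counts to 99 (-2.31, adjusted p = 4.96e-07), and E2F7, a repressor of S phase genes, the largest rise, from 5392.5 to 11930 (1.16, adjusted p = 6.11e-06). RBL2 (p130), a subunit of the DREAM repressor, rose by 0.53 from 3 to 7 days (adjusted p = 0.00147). Of 24 p53 target genes, which can be induced downstream of ATM and CHEK2, 8 were higher (33.3%) and 3 lower (12.5%) at 3 days, 9 (37.5%) and 5 (20.8%) at 7 days, and 4 (16.7%) and 5 (20.8%) between the times, with medians of 0.05, 0.12 and 0.14. Of all genes tested, 14.9%, 27.7% and 17% were higher and 14%, 26.9% and 16.2% lower. The first of these medians changed sign, to -0.00970, with equal library totals.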

How the data were processed

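The 6 RNA-seq libraries, from H2087-LCC cells, fall into 3 groups of 2, taken from the labels: 3 days of SB, 3 days of TGFβ and 7 days of TGFβ. The authors sequenced polyA RNA prepared with a kit that does not mark the strand, checked reads with FastQC 0.11.5, mapped them to hg19 with STAR, counted reads on genes with HTSeq 0.6.1p1 and used DESeq2 (given as version 3.4 in the labels). The deposited table holds their counts normalized by library size and rounded to whole numbers, treated here as a score and not as read counts, so the negative binomial test of the study was not run. From the low values, 1 read was worth 0.896 to 1.10 normalized counts.

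A pseudocount of 1 was added, log2 was taken, and limma 3.58.1 (R 4.3.3) was run on the 14395 genes averaging 10 or more (moderated variances, mean-variance trend on, group as the only term, 3 residual degrees of freedom), with Benjamini-Hochberg adjustment over all genes tested at 0.05 in each comparison. An exact permutation test of 2 against 2 libraries (two-sided) cannot give a p below 0.333. As a check of the code, the fit was also run on simulated counts. Their spread was set and not taken from these libraries, so the calls made here were not tested by it. Coordinates came from the GENCODE annotation on GRCh37 and promoters from RefSeq on GRCh38.p14. Python 3.11.15 and matplotlib 3.10.9 served for the plots.

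The 39 genes, their groups, the further lists (recombination and Fanconi, end joining, mismatch, base excision and nucleotide excision repair, S phase, G2/M, E2F, RB and DREAM, p53 targets, cell type markers) and the motifs were chosen with earlier results of these data known. Genes given in full were, in each role group, those with the largest and the smallest absolute log2 fold change between 7 days and SB, and those that went against most; values of other genes among the 39 were added after they were seen. In the further lists, the largest rise and fall could be named. SLX1A, MLF1IP and HBA1 were not matched to the table. The alternatives were a pseudocount of 0.5 or 5, no filter or a stricter one (mean of 50), equal library totals, size factors by median of ratios, limma without the trend, the 4 libraries compared alone, a replicate block, and each library left out.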

Additional observations from a re-analysis of the deposited data

How the results depend on the processing

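The alternatives that kept all libraries moved the fewest calls at 7 days against SB. They moved more between 7 and 3 days and most at 3 days against SB. With no filter on low values 5 of the 39 genes were lower and 0 higher there (20 and 2 at an unadjusted p under 0.05 in that limma fit), without the variance trend 6 and 0 (15 and 1 unadjusted), and with equal library totals 20 were lower, with a median of -0.29. Of all genes tested at 3 days, 1249 of 19977 were lower with no filter and 1375 of 14395 without the trend. With equal totals 2552 of 14384 were lower. The median of the 39 genes at 7 days against SB was -0.61 with equal totals. Between 7 and 3 days 16 genes were lower with no filter and 16 without the trend, against 23 in the main fit. At an unadjusted p under 0.05 in these limma fits, 29 and 25 were lower. The count of genes higher between 7 and 3 days was 0 with no filter and 0 without the trend, where ATM lost its call (1 gene was higher at an unadjusted p under 0.05 in each of these 2 fits). Equal totals moved the median of all genes tested at 3 days to -0.077 and changed the sign of the p53 target median at 3 days (-0.00970), of PALB2 (-0.0028) and FANCF (-0.0048) at 3 days and of FANCF at 7 days (-0.034). Pseudocounts of 0.5 and 5, the stricter filter (mean of 50), size factors by median of ratios and the 4 libraries compared alone moved no count of the 39 genes lower or higher by more than 1.5 times. The causes were not tested.

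With 1 library left out, a lone library is assumed to vary like the others. The counts at 3 days against SB were 4 to 12 lower and 0 to 1 higher, with medians from -0.25 to -0.17. At 7 days against SB they were 24 to 26 lower, with medians from -0.65 to -0.53, and between 7 and 3 days 11 to 16 lower and 0 to 1 higher, with medians from -0.38 to -0.35. Signs turned in values near 0 that passed no threshold. At 3 days these were MRE11A (-0.0021 to 0.15), RAD54B (-0.13 to 0.030), FANCM (-0.080 to 0.017), PALB2 (-0.0084 to 0.11), FANCB (-0.15 to 0.024), FANCC (-0.096 to 0.0069), FANCF (-0.088 to 0.19) and the nucleotide excision repair median (-0.071 to 0.015). At 7 days against SB they were NBN (-0.097 to 0.034), FANCF (-0.13 to 0.16) and FANCL (-0.12 to 0.036), and between the times ATR (-0.11 to 0.025), FANCF (-0.19 to 0.11), MUS81 (-0.29 to 0.079) and RAD52 (-0.059 to 0.28).

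Libraries with the same replicate number did not deviate together (correlations of 0.14 for SB with 3 days, -0.10 for SB with 7 days and -0.29 for 3 with 7 days), so the numbers were not taken as pairs. With a replicate block, 10 genes were lower and 1 higher at 3 days, 26 and 1 at 7 days, and 22 and 1 between the times. Depth limited the 39 genes little, with a counting error of at most 6.13%, whereas 2 libraries per group gave 3 residual degrees of freedom.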
